A study of Mus musculus with 12 samples.

Results

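Fresh-frozen sections of the mouse hippocampus were permeabilized in 2 ways before photo-isolation chemistry (PIC), with HCl or with Tris-EDTA (TE), and the transcripts recovered after either treatment were compared. The comparison took all 12 replicates of fresh-frozen sections treated with HCl and all 12 treated with TE, 24 of the 48 replicates of the series, chosen by the section type and permeabilization in their labels. In the HCl group, sections were treated with 5% Triton X-100 for 3 min and then with 0.1 N HCl for 5 min. The published HCl protocol goes on with Tris-HCl and then 5 min in preheated PBS, so that both treatments include heat. The TE group was heated in TE of pH 8.0 at 70 °C for 1 h. Both groups came from male Slc:ICR mice aged 8 weeks without any engineered allele, and neither tissue had been formalin-fixed before freezing. CA1, CA3 and the dentate gyrus (DG) were irradiated in 4 replicates per region and treatment. The 4 replicates of a region and treatment carried different barcodes and shared 1 sequencing library, so that the comparison rests on 3 HCl libraries and 3 TE libraries, and within a region treatment and library cannot be told apart. The description of the series gives CA2 where the sample titles give CA3, and the titles were followed. The labels do not tie replicate numbers to mice, so that p-values measure the spread between these replicates.

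In PIC, mRNA is reverse-transcribed inside the section with oligo(dT) primers that carry a photo-caging group, and only cDNA whose primer has been uncaged by light enters the library. These fresh-frozen sections were fixed with paraformaldehyde after cutting, and RNA in such tissue is held by proteins and cross-links, so that primers and enzyme reach it only after permeabilization. Acid strips basic proteins such as histones from nucleic acids, and heating in a chelating buffer reverses formaldehyde cross-links and melts RNA structure. Libraries are built from the 3′ ends of transcripts as in CEL-seq2, and each cDNA molecule carries a unique molecular identifier (UMI) of 6 bases. The values below are different UMIs per gene, given as CPM, the gene's UMIs relative to all UMIs of the replicate.

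The replicates held 127253 to 1111804 UMIs. HCl replicates had 647434 ± 269483 UMIs (mean ± SD, n = 12) and TE replicates 654145 ± 234788 UMIs (n = 12), a ratio of 0.99 that was within the spread of the replicates (two-sided permutation test within regions, p = 0.94). At these depths 1 UMI was worth 0.899 to 7.86 CPM, and a count of 0 allows up to 3 UMIs, or 2.70 to 23.6 CPM depending on the replicate, which covers counting error only. One replicate stood apart in its mitochondrially encoded share. HCl CA1 replicate 4 had the smallest total, 127253 UMIs, and 8.26% of them lay in mitochondrially encoded genes, against 3.10% to 3.56% in the other HCl CA1 replicates. Protein-coding nuclear genes took 80.8% of its UMIs and 87.8% to 89.0% of those of the other HCl CA1 replicates. Several results that rest on it are given with and without it.

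Markers of the irradiated regions followed the labels in both treatments. All 7 CA1 markers examined and all 8 DG markers had their highest mean CPM in the region they mark, with HCl and with TE. Wfs1, a marker of CA1 pyramidal cells, had means of 334, 48.6 and 82.0 CPM in CA1, CA3 and DG with HCl, and of 345, 46.1 and 44.9 CPM with TE. Prox1, the transcription factor of dentate granule cells, had means of 102, 215 and 937 CPM with HCl and of 136, 199 and 1075 CPM with TE. Of the 6 CA3 markers, Grik4, Cpne4 and Bok were highest in CA3 with both treatments. Coch was highest in DG with both, and Iyd and Plagl1 changed their highest region between treatments. The CA2 markers were mixed: Rgs14, Amigo2 and Cacng5 were highest in the CA3 libraries with TE but not with HCl, and Pcp4 was highest in DG with both. In CA1 with HCl, the summed share of the CA2 markers was 0.0722% in replicate 1 and 0.0289% to 0.033% in the other replicates.

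Of 31102 genes with at least 1 UMI, 18164 had 10 or more UMIs summed over the 24 replicates and were tested with region as a covariate (edgeR's quasi-likelihood test, Benjamini-Hochberg adjusted p under 0.05). These genes held 99.8% of all UMIs. HCl and TE differed in 5552 genes, 30.6% of those tested. With HCl 2954 genes were higher, 16.3% of those tested, and 2598 were lower, 14.3%. The median log2 fold change (HCl over TE) of all genes tested was 0.10, and changes of groups of genes below are read beside it. When replicates were scaled by their totals in place of TMM normalization, 5975 genes were called, 4139 higher and 1836 lower, and the median shifted to 0.24. The split between higher and lower genes therefore depends on the scaling, with 53.2% of called genes higher under TMM and 69.3% under totals. It also turned with the replicates of each library summed, where 1833 genes were higher and 2234 lower (45.1% higher). Without both libraries of CA1, CA3 or DG the share higher was 48.6%, 48.1% and 50.1%. Most changes were moderate, with a median absolute log2 fold change of 0.75 among called genes. A change of over 1 on the log2 scale was reached by 1227 higher and 468 lower genes, and over 2 by 245 and 41. Called genes had a median of 25.2 UMIs per replicate and genes not called 4.62. The 12 HCl replicates lay all above the 12 TE replicates in 143 genes and all below them in 131, together 1.51% of the genes tested. Genes called lower were protein-coding in 92.1% and genes called higher in 78.7%, beside 77.1% of all genes tested.

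**Figure D1:**
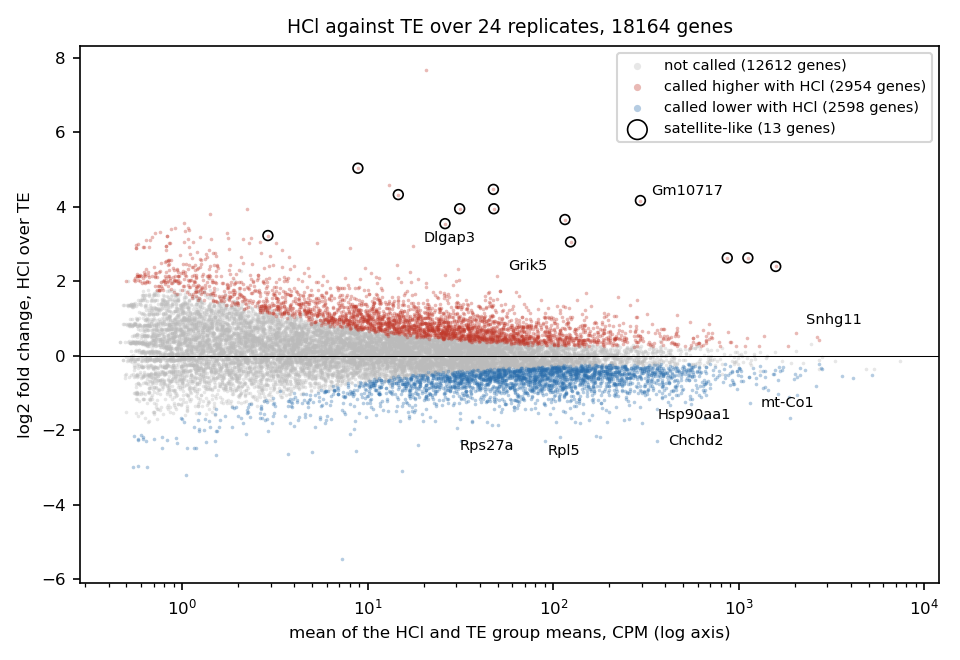
Each point is 1 of 18164 genes tested, with the mean of the HCl and TE group means on a log axis (CPM) and the log2 fold change of HCl over TE (n = 12 against 12). Among abundant genes more were called lower (blue) than higher (red), and the 13 satellite-like genes (open circles) lay between 2.40 and 5.04.

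Satellite-like gene models held several of the largest changes among the genes higher with HCl that the naming rule selected. Mouse chromosomes carry long arrays of major satellite repeats beside their centromeres, and a few annotated gene models lie in such repeats. Gm10715, Gm11168 and Gm10721 had larger log2 fold changes, at 5.04, 4.47 and 4.33, than Gm10717 (chr9:3025417-3033289, GRCm38), at 4.17. Gm10717 is described here as the example. Its transcript repeats itself at a spacing of 234 bases, the repeat length of the major satellite, and 13 genes of the table share runs of 30 bases with it. Of these, 10 lie near the start of chromosome 9, Gm10800 and Gm10801 at chr2:98666547-98667301 and chr2:98662237-98664083, and Gm21738 at chr14:19415857-19418930. The run below is shown because all 13 genes hold it, from base 170 to base 199 of the Gm10717 transcript. Capitals mark runs of at least 4 equal bases. Its opposite strand reads as stretches of A, and Gm26870 is annotated on that strand across the other 9 on chromosome 9.
Gm10717, gene strand: cagtgtgcatttctcaTTTTTcacgTTTTT
Gm10717, opposite strand: AAAAAcgtgAAAAAtgagaaatgcacactg

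Gm10717 had 78.7 to 2986 CPM (median 279) in the HCl replicates and 10.1 to 37.8 CPM (median 19.1) in the TE replicates. Every HCl replicate lay above every TE replicate, and the log2 fold change was 4.17 ± 0.25 (SE, adjusted p = 5.3e-19). All 13 genes were higher with HCl, against 16.3% of all genes, from 2.40 ± 0.21 for Gm10800 to 5.04 ± 0.50 for Gm10715. The members share sequence, and reads were counted without strand, so that they count as 1 signal and not as 13. Together they took 0.779% ± 1.07 of UMIs with HCl (SD, n = 12) and 0.0755% ± 0.0267 with TE (n = 12), a ratio of 10.3, and the groups did not overlap. The share differed between regions. It was 1.77% with HCl and 0.0997% with TE in CA1, 0.419% and 0.0772% in CA3, and 0.148% and 0.0497% in DG. HCl CA1 replicate 4 alone held 4.00%, the other HCl CA1 replicates 0.984% to 1.06%. Without it the ratio was 6.44 over all regions and 10.3 in CA1, and the log2 fold change of Gm10717 was 3.83. Gm10722 was the exception among regions, since its log2 fold change was 4.45 ± 0.33 in CA1 and 3.78 ± 0.25 in CA3 but -1.11 ± 0.36 in DG.

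Among the 1549 genes higher in every region and averaging 10 UMIs or more per replicate, the naming rule selected the following outside satellite-like models. Dlgap3 (chr4:127169204-127237022), a scaffold of the postsynaptic density, had 4.19 to 79.4 CPM (median 25.3) with HCl and 0 to 10.5 CPM (median 3.00) with TE. Its log2 fold change was 2.95 ± 0.33 (adjusted p = 2.7e-10), with values of 3.07, 2.88 and 2.82 in CA1, CA3 and DG, and the groups overlapped only in their tails. Grik5 (chr7:25009849-25072346), the GluK5 subunit of kainate receptors, had 44.4 to 141 CPM (median 70.9) with HCl and 3.45 to 28.5 CPM (median 14.3) with TE, without overlap (2.15 ± 0.20, adjusted p = 3.2e-12). Fcho1, a protein that starts clathrin-coated pits, had 27.9 to 102 CPM (median 41.1) with HCl and 1.95 to 19.6 CPM (median 9.02) with TE, again without overlap (2.0 ± 0.18, adjusted p = 1.5e-12). The adhesion receptors Adgrb1 and Adgrb2 were higher by 2.17 ± 0.30 and 2.06 ± 0.28 on the log2 scale, and the noncoding Gm26804 by 2.33 ± 0.23. Transcripts of Dlgap3, Grik5, Adgrb1 and Adgrb2 had GC contents of 63.9%, 61.7%, 63.6% and 63.1%.

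Of the 2219 genes lower in the same way, Chchd2 (chr5:129881156-129887470), a small protein of the mitochondrial intermembrane space, had the smallest adjusted p of all genes tested. It had 85.2 to 176 CPM (median 138) with HCl and 474 to 750 CPM (median 567) with TE, and the groups lay far apart. The log2 fold change was -2.29 ± 0.11 (adjusted p = 2.3e-22), close to the same in CA1, CA3 and DG at -2.51, -2.18 and -2.22. Rps27a (chr11:29545846-29548109), a ribosomal protein made as a fusion with ubiquitin, had 0 to 56.4 CPM (median 30.5) with HCl and 88.4 to 188 CPM (median 145) with TE (-2.29 ± 0.17, adjusted p = 1.6e-15). Rpl5 (chr5:107900502-107909005), which binds 5S rRNA in the large ribosomal subunit, had 33.5 to 96.6 CPM (median 63.2) with HCl and 203 to 391 CPM (median 272) with TE (-2.16 ± 0.13, adjusted p = 5.3e-19). Hsp90aa1 (chr12:110690605-110702728), the inducible cytosolic HSP90, had 82.3 to 212 CPM (median 146) with HCl and 319 to 567 CPM (median 452) with TE (-1.80 ± 0.11, adjusted p = 5.3e-19). None of these 4 genes overlapped between treatments. Rnf227, a RING finger gene, fell by 2.18 ± 0.12 on the log2 scale, Dnajc2, a ribosome-bound co-chaperone, by 1.85 ± 0.17, Vti1b, a SNARE of the endosomal pathway, by 1.79 ± 0.16, and Cpeb3, which binds the 3′ UTRs of synaptic mRNAs, by 1.78 ± 0.13.

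**Figure D2:**
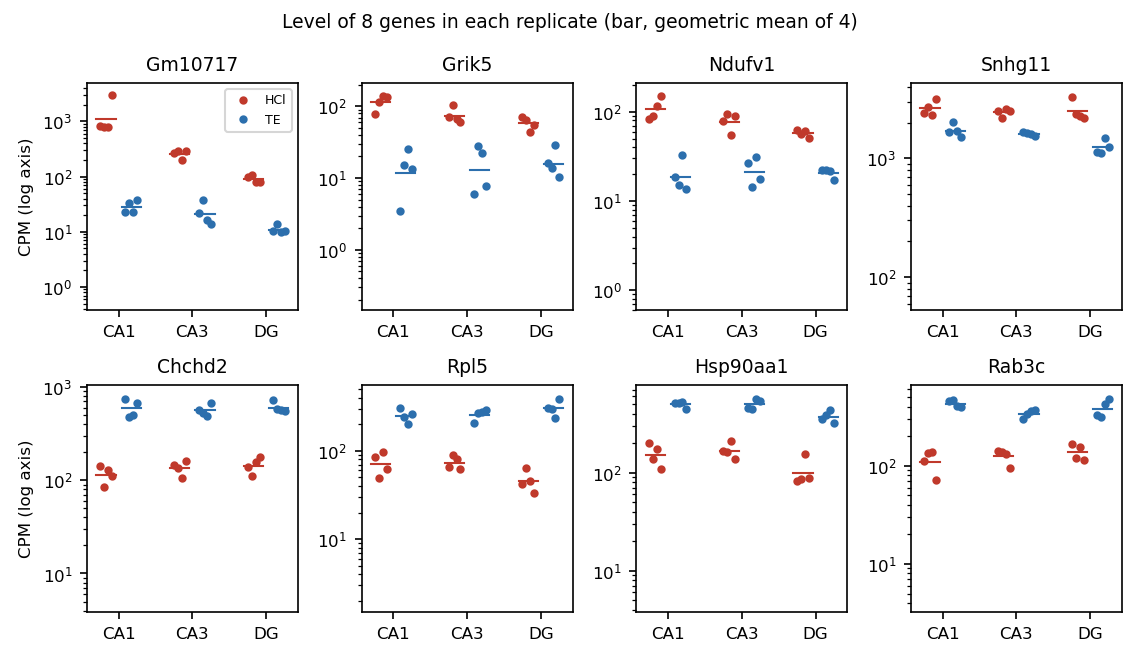
CPM of 8 genes in every replicate on log axes, by region, with HCl in red and TE in blue (4 points per group, bars for geometric means). In all 8 genes the HCl and TE replicates of each region were separate, with HCl above TE in the upper row and below it in the lower row, and for Gm10717 the HCl level differed between regions.

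Direction followed the base composition of the transcript. Protein-coding genes were divided into quintiles by GC content, with medians of 41.1%, 45.7%, 49.4%, 53.3% and 57.7%. From the lowest to the highest quintile, the share called higher with HCl was 6.83%, 8.26%, 13.1%, 21.6% and 32.8%, and the share called lower was 28.8%, 22.1%, 16.6%, 11.2% and 6.65%. The median log2 fold change went from -0.16 in the lowest quintile to 0.41 in the highest, a difference of 0.57. This difference was 0.44 in CA1, 0.65 in CA3 and 0.73 in DG. Each replicate showed it as well, since the GC content averaged over the UMIs of coding genes was 48.6% to 49.1% in the 12 HCl replicates and 47.9% to 48.4% in the 12 TE replicates, without overlap. Coding genes of 50% GC or more took 37.8% ± 1.70 of UMIs with HCl and 33.7% ± 0.974 with TE (SD, n = 12 each). In CA3 and DG the groups did not overlap, with 38.7% against 33.9% and 38.8% against 32.7%, and in CA1 they did, with 35.8% against 34.5%. The CA1 overlap came from HCl CA1 replicate 4 alone, at 35.1%. The other HCl CA1 replicates had 35.6% to 36.9% and the TE CA1 replicates 33.6% to 35.2%. The last 300 bases, from which these libraries are read, gave nearly the same range, with 8.30% of genes higher and 26.6% lower in the quintile poorest in GC, and 31.7% higher and 6.15% lower in the richest. Removing the trend with GC from each replicate before the fit reduced the difference between the outer quintiles to 0.06. It left 5317 genes called, of which 4275 were called without the correction, all with the same sign.

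**Figure D3:**
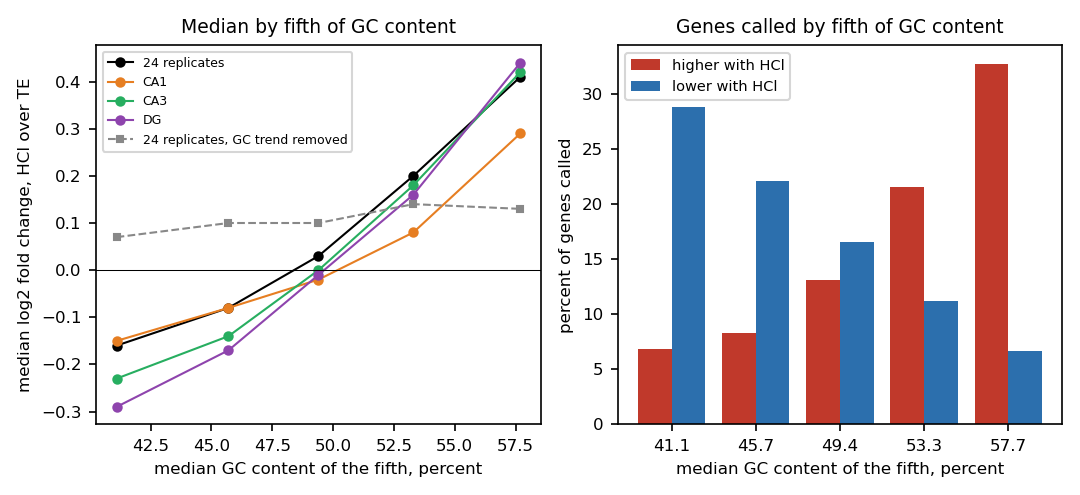
Left, median log2 fold change (HCl over TE) of protein-coding genes in quintiles of GC content, over the 24 replicates, within each region, and with the GC trend removed. Right, percent of genes called higher and lower in each quintile. The median rose from -0.16 to 0.41 and the percent called higher from 6.83 to 32.8.

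Other properties of the transcript went along with direction. Genes called lower had a median 3′ UTR of 2107 bases, genes called higher 1133 bases and genes not called 1397 bases. In quintiles of 3′ UTR length, the share called lower went from 9.24% to 27.8% and the share called higher from 20.2% to 10.7%. Within the quintile poorest in GC, 9.68% of genes with the shortest 3′ UTRs and 39.0% of those with the longest were lower, whereas within the quintile richest in GC these shares were 6.16% and 6.5%. Genes with a longest A run of 4 bases or fewer were higher in 26.7% and lower in 8.29%, and genes with a run of 9 or more in 12.3% and 27.4%. With the GC trend removed the shares called higher were 16.3% and 16.0% for these runs of A, and 15.7% and 15.9% for the shortest and longest 3′ UTRs, while the shares called lower were 12.3% and 20.1%, and 10.7% and 18.6%. Genes with many exons were called higher more often, 23.6% in the top quintile of exon number and 11.4% in the bottom quintile, at median GC contents of 49.7% and 49.0%, and 24.1% and 12.8% with the GC trend removed. Abundance was the other axis. In the quintile with most UMIs 44.9% of coding genes were lower and 15.7% higher, while in the quintile with fewest 0.966% were lower and 9.62% higher. The median log2 fold change went from 0.38 in the rarest quintile to -0.22 in the most abundant. Rare genes passed the minimum on summed UMIs with few counts, and the part of this minimum in the trend was not tested. With every replicate thinned to the smallest total the medians of the same quintiles, over the genes still tested, went from 0.41 to -0.14. Among the most abundant genes, 61.2% were lower and 4.14% higher in the quintile poorest in GC, and 19.9% lower and 45.1% higher in the quintile richest in GC. By exonic length the medians lay between 0.00 and 0.10 in all quintiles, and from the shortest to the longest quintile the share called higher went from 12.7% to 17.2% and that called lower from 14.1% to 22.4%. With the GC trend removed these shares went from 9.98% to 22.5% and from 15.3% to 15%. These properties are correlated among genes, and their parts were separated only as far as given here.

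Several noncoding classes had medians above that of all genes and more genes called higher than lower. Of 1825 lncRNA genes tested, 224 were higher (12.3%) and 82 lower (4.49%), with a median log2 fold change of 0.27, beside 16.3% and 14.3% and a median of 0.10 over all genes. Of 1500 loci annotated as TEC, models that still await experimental evidence, 275 were higher and 72 lower (median 0.27), and of 437 processed pseudogenes 75 and 21 (median 0.36). Noncoding models inside an intron of a coding gene on the same strand were higher in 260 and lower in 84 of 1429. Other classes did not follow: of 9 rRNA genes 0 were higher and 2 lower (median -0.85), and of 10 genes of miscellaneous RNA 1 was higher and 1 lower (median -0.23). The median of the 13995 protein-coding genes was 0.07, with 2324 higher and 2388 lower. The lncRNA class took 2.55% ± 0.209 of UMIs with HCl and 2.05% ± 0.211 with TE (SD, n = 12 each). The replicates of the treatments were separate within CA1, within CA3 and within DG. TEC loci took 2.32% ± 0.496 and 1.75% ± 0.346, and these shares overlapped in each region. In CA1 the overlap came from HCl CA1 replicate 4 alone, at 1.42%. The other HCl CA1 replicates had 2.05% to 2.45% and the TE CA1 replicates 1.29% to 1.79%. Many noncoding genes are rare, and rare coding genes also had medians above 0.

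Among 12 lncRNAs known to stay in the nucleus, 7 were higher and 1 lower (median 0.36). Their summed share was 0.982% to 1.37% (median 1.08%) with HCl and 0.705% to 0.972% (median 0.893%) with TE, so that each HCl replicate lay above each TE replicate. Snhg11 (chr2:158375638-158386145), a host of snoRNA genes that the annotation lists as protein-coding, had 2169 to 3264 CPM (median 2445) with HCl and 1114 to 2009 CPM (median 1574) with TE (0.60 ± 0.09, adjusted p = 9.7e-07). Meg3 (chr12:109541001-109571726), an imprinted maternal lncRNA, had 2766 to 3874 CPM (median 3207) and 1600 to 2840 CPM (median 2051), with an overlap at the edge (0.41 ± 0.09, adjusted p = 3.4e-04). Miat, a lncRNA of nuclear bodies in neurons, was higher by 0.62 ± 0.11 and Neat1, the scaffold of paraspeckles, by 0.61 ± 0.16. Neat1 was not called without both CA1 libraries (0.35, adjusted p = 0.147), nor Meg3 with the replicates of each library summed (0.32, adjusted p = 0.101). Malat1 (chr19:5795690-5802672), a lncRNA of nuclear speckles, went the other way, with 1587 to 4320 CPM (median 2417) and 1991 to 3905 CPM (median 2890), overlapping groups and a log2 fold change of -0.33 ± 0.12 (adjusted p = 0.0261). This call of Malat1 was lost with DESeq2 (adjusted p = 0.0704), with scaling by totals (-0.18, adjusted p = 0.232) and without HCl CA1 replicate 4 (adjusted p = 0.0503) or any one of 6 other replicates, up to an adjusted p of 0.0664. With the GC trend removed Malat1 was at -0.05 and not called (adjusted p = 0.792), and 6 of the 12 lncRNAs were higher and 0 lower. Of 37 small nuclear RNA genes 3 were higher and 2 lower, and of 31 snoRNA genes 3 and 3.

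**Figure D4:**
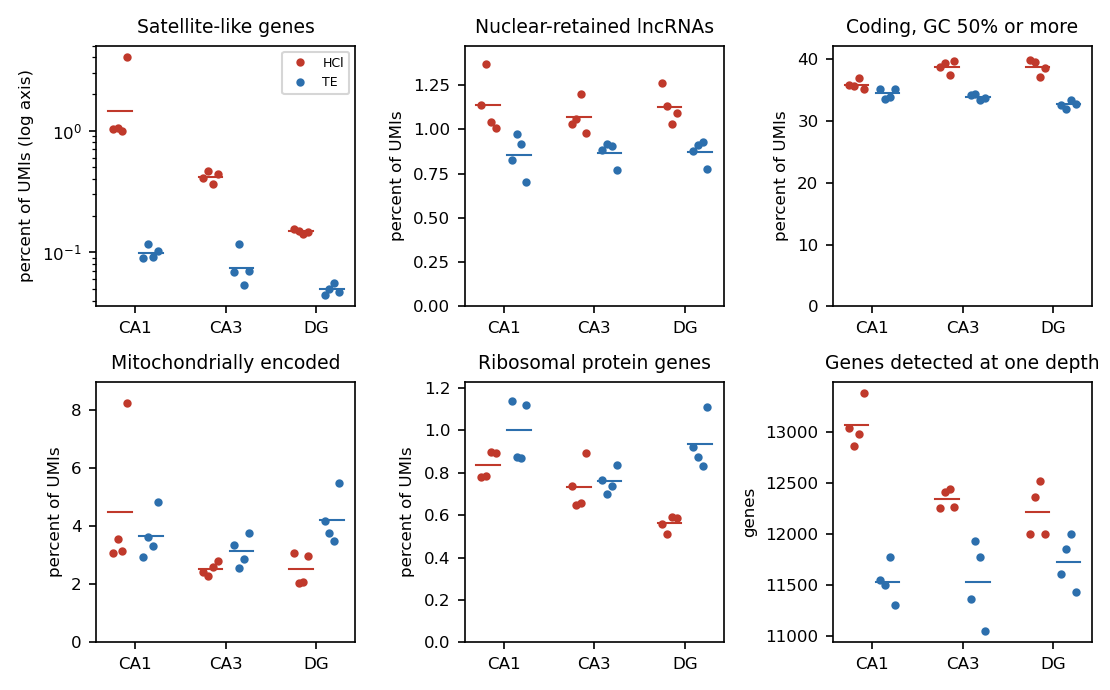
Percent of UMIs in 5 classes and genes detected after thinning to 127253 UMIs, in every replicate by region, with HCl in red and TE in blue (bars, means of 4, geometric for satellite-like genes, on a log axis). Nuclear-retained lncRNAs and genes detected were higher with HCl in every region, and HCl CA1 replicate 4 stands out at 8.26% mitochondrial and 4.00% satellite-like UMIs.

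Mitochondrially encoded transcripts took 3.20% ± 1.66 of UMIs with HCl and 3.69% ± 0.832 with TE (SD, n = 12 each). Without HCl CA1 replicate 4 the HCl share was 2.74% ± 0.488 (n = 11), and the difference moved from -0.489 to -0.949 percentage points. A correction for repeated UMIs, uncertain for the reason given below, moved it to -3.44. In DG the share was 2.54% against 4.24%, with all HCl replicates below all TE replicates, in CA3 it was 2.53% against 3.14% with overlap, and in CA1 it was 4.52% against 3.68% with overlap, and 3.27% with HCl without replicate 4. Without that replicate the mean of these genes was thus below TE in each region. This did not hold in CA1 when the nuclear copies of mitochondrial sequence described below were counted with them. The combined CA1 share was 6.09% with HCl and 4.4% with TE, and 4.6% with HCl without replicate 4. In CA3 the combined share was 2.87% with HCl and 3.88% with TE, and in DG 2.6% and 4.56%. Of the 13 mitochondrial mRNAs 5 were lower and 1 higher. Within DG 11 were lower and 0 higher, against 8.35% and 7.01% of all genes tested there, within CA3 7 lower and 0 higher, against 7.18% and 6.34%, and within CA1 5 higher and 1 lower of 12 tested (median 0.55), against 9.40% higher and 11.4% lower. Without HCl CA1 replicate 4 the CA1 counts were 4 higher and 4 lower (median 0.17). mt-Co1, a cytochrome c oxidase subunit, had 239 to 1580 CPM (median 747) with HCl and 1001 to 2118 CPM (median 1513) with TE. Its log2 fold change was -1.27 ± 0.13 (adjusted p = 7.5e-11), and -0.73, -0.95 and -2.23 in CA1, CA3 and DG. mt-Nd5, a complex I subunit, had 501 to 2633 CPM (median 1262) and 1796 to 2372 CPM (median 2078), a fall by 1.03 ± 0.13 on the log2 scale. mt-Nd3 was called higher (1.08 ± 0.39, adjusted p = 0.0284) from few UMIs, and not without HCl CA1 replicate 4 (0.84, adjusted p = 0.0754). UMIs of 6 bases allow 4096 different sequences, and mt-Rnr2, the large mitochondrial rRNA, reached at least 90% of that number in 9 HCl and 12 TE replicates. Its highest count was 4356, above that number, so that how UMIs were told apart in these genes is not settled by the files. Its log2 fold change was -0.14 ± 0.17 as counted and was not called (adjusted p = 0.562), and it was -1.0 after the correction, which sets counts above the limit just below it. mt-Rnr1, mt-Nd1 and mt-Nd4 reached 90% in 1, 4 and 4 TE replicates and in 0 HCl replicates, and differences of these 4 genes are uncertain.

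Nuclear copies of mitochondrial sequence differed widely between regions. These pseudogenes share runs of 30 bases with mitochondrial genes, and how their reads were divided from those of the mitochondrial originals was not tested. Their summed share with HCl and TE was 1.57% and 0.724% in CA1, 0.342% and 0.736% in CA3, and 0.0548% and 0.321% in DG, without overlap in any region. Gm10925 (chr1:24613974-24614651), which is identical to mt-Atp6 in all its runs of 30 bases, had log2 fold changes of 5.19 ± 0.22, -0.59 ± 0.21 and -4.23 ± 0.28 in CA1, CA3 and DG. Gm28437 (chr1:24613189-24613971), which matches mt-Co3, had -0.01 ± 0.18, -0.81 ± 0.17 and -6.61 ± 0.25, and mt-Co3 itself 1.30, -0.98 and -2.45. Pseudogenes without mitochondrial sequence took 0.596% ± 0.108 of UMIs with HCl and 0.416% ± 0.0532 with TE, and were above TE in all HCl replicates within each region. All pseudogenes together took 0.586% with HCl and 0.775% with TE in DG, without overlap, and 2.31% and 1.17% in CA1.

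Gene functions were described with 38 lists, each by its number of higher and lower members and its median, beside 16.3%, 14.3% and 0.10 for all genes. Cytosolic ribosomal proteins and translation factors had more genes lower than higher. Of 80 ribosomal protein genes 33 were lower and 5 higher (median -0.29). Within DG 41 were lower and 0 higher (median -1.04), against 8.35% lower and 7.01% higher among all genes, and the summed share there was 0.562% ± 0.0355 with HCl and 0.933% ± 0.121 with TE (SD, n = 4 each) without overlap. In CA3 14 were lower and 6 higher (median -0.15), against 7.18% and 6.34%, and the shares overlapped. In CA1 20 were lower and 11 higher (median -0.29), against 11.4% and 9.40%, also with overlapping shares. Of 75 genes of the mitochondrial ribosome 8 were lower and 7 higher (median -0.04, and 0.10 with scaling by totals). Besides Rps27a and Rpl5, Rps20 of the small subunit fell by 0.93 ± 0.13 on the log2 scale, with 204 to 447 CPM (median 272) with HCl and 305 to 727 CPM (median 521) with TE. Rpl10, on the other hand, was higher (0.91 ± 0.19, adjusted p = 2.0e-04), with 1.51, 1.15 and -0.31 in CA1, CA3 and DG. Ribosomal protein genes have many near-identical pseudogenes, and reads may be split between them. Of 27 translation factors 11 were lower and 5 higher. Eif1b, a factor of start codon choice, fell by 1.31 ± 0.12 on the log2 scale and Eef1d, an exchange factor of elongation, by 1.30 ± 0.16, while Eef1a2, the elongation factor of neurons and muscle, was higher by 0.60 ± 0.10, though not with the GC trend removed (0.16, adjusted p = 0.202).

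Among chaperones, secretory pathway, dense-core vesicle and proteasome genes, more were called lower than higher. Of 29 heat shock genes 12 were lower and 1 higher (median -0.15). Hsp90ab1, the constitutive HSP90, had 184 to 692 CPM (median 459) with HCl and 492 to 1031 CPM (median 858) with TE (-0.97 ± 0.11, adjusted p = 5.7e-10), and Dnajc5, a chaperone of synaptic vesicles, fell by 1.01 ± 0.11 on the log2 scale. The 1 higher gene was Cryab, a small heat shock protein of glia (0.44 ± 0.12), not called with the replicates of each library summed (0.38, adjusted p = 0.056). Of 29 genes of the secretory pathway 16 were lower and 5 higher (median -0.43). Sec62, of the translocation channel of the endoplasmic reticulum, had 304 to 378 CPM (median 351) with HCl and 449 to 684 CPM (median 568) with TE, without overlap (-0.81 ± 0.09, adjusted p = 7.3e-11). Of 23 genes of dense-core vesicles 9 were lower and 2 higher (median -0.31). Cpe, the carboxypeptidase that trims neuropeptides, had 1038 to 1988 CPM (median 1436) and 1995 to 3513 CPM (median 2545), without overlap (-1.05 ± 0.11, adjusted p = 4.1e-11). The prohormone convertase Pcsk2 (0.66 ± 0.09) and the convertase inhibitor Pcsk1n (0.72 ± 0.11) were the 2 higher genes. Of 32 proteasome genes 12 were lower and 5 higher (median -0.22), with Psma7 of the core lower by 1.15 ± 0.12 and Psmd3 of the cap higher by 1.13 ± 0.18 on the log2 scale.

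Of the genes of the synapse, GABA receptor subunits were lower in 8 of 14 and higher in 1 (median -0.50). Gabbr2 of the metabotropic receptor fell by 0.77 ± 0.09 on the log2 scale, and Gabra2 was the 1 higher subunit (0.36 ± 0.10). Gabra2 was not called without both CA1 libraries (0.14, adjusted p = 0.357) or with the replicates of each library summed (0.29, adjusted p = 0.178). Glutamate receptor subunits were higher in 6 of 22 and lower in 3 (median 0.25). Grik5 and Grin2d (0.94 ± 0.15) were higher, Gria3 was lower (-0.77 ± 0.09), and Gria2, the AMPA receptor subunit that sets calcium permeability, had 2058 to 3893 CPM (median 2656) and 2015 to 3355 CPM (median 2709) and was not called (-0.11 ± 0.09, adjusted p = 0.368). Synaptic vesicle genes went both ways, 10 higher and 9 lower of 32. Rab3c, a small GTPase of vesicles, had 70.7 to 165 CPM (median 133) with HCl and 296 to 479 CPM (median 383) with TE, without overlap (-1.71 ± 0.11, adjusted p = 3.7e-18). Syp, the vesicle protein synaptophysin, had 637 to 862 CPM (median 723) and 274 to 459 CPM (median 337), also without overlap but in the opposite direction (0.90 ± 0.09, adjusted p = 7.9e-12). Unc13a, the priming factor Munc13-1, was higher by 0.95 ± 0.11 and Rims1, its partner at the active zone, lower by 0.77 ± 0.10 on the log2 scale. With scaling by totals the median of this list went from -0.03 to 0.11, while that of all genes went from 0.10 to 0.24.

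Of 17 mRNAs known to be carried into dendrites 8 were higher and 4 lower (median 0.36). Ddn, the dendritic protein dendrin, had 100 to 664 CPM (median 221) with HCl and 31.3 to 186 CPM (median 103) with TE (1.57 ± 0.22, adjusted p = 8.1e-08), and Psd, an exchange factor for Arf6 in spines, was higher by 1.6 ± 0.26. The dendritic mRNAs with most UMIs did not follow, since Camk2a, the calcium- and calmodulin-dependent kinase of the spine, was at -0.20 ± 0.10 (adjusted p = 0.13), Nrgn, neurogranin, at -0.14 ± 0.10 (adjusted p = 0.326), and Map2, the microtubule protein of dendrites, fell by 0.77 ± 0.09. The transcripts of Ddn, Psd, Dlgap3 and Grik5 lie in the GC-rich quintile, and with the GC trend removed the dendritic list had 6 higher, 5 lower and a median of 0.19. Ddn and Psd were then at 1.15 and 1.16 and still called.

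Of 48 potassium channel genes 11 were higher and 5 lower (median 0.12), with Kcnh3, a neuronal channel of the EAG family, higher by 1.99 ± 0.28. Of 16 calcium, sodium and HCN channels 5 were higher and 4 lower. Cacna1b, the pore of the N-type calcium channel, had 173 to 287 CPM (median 212) with HCl and 67.1 to 159 CPM (median 110) with TE, without overlap (0.89 ± 0.10). Ion pumps were lower in 13 of 24 and higher in 5 (median -0.30). Atp1b1, the beta1 subunit of the sodium pump, had 825 to 1723 CPM (median 1261) with HCl and 2106 to 3216 CPM (median 2469) with TE, without overlap (-1.12 ± 0.10, adjusted p = 1.8e-13). Cytoskeletal genes were lower in 18 of 30 and higher in 1 (median -0.44), and the call count stayed alike with the GC trend removed (19 lower, 1 higher). Their summed share was 1.18% against 1.49% in CA1, 1.39% against 1.58% in CA3 and 1.22% against 1.46% in DG, with HCl below TE in all replicates of each region. Actb, beta-actin, had 766 to 1862 CPM (median 1400) and 1165 to 2389 CPM (median 1723) (-0.49 ± 0.10, adjusted p = 1.1e-04). Map1a was the higher gene (0.46 ± 0.10). It was not called with the replicates of each library summed (0.40, adjusted p = 0.0592) or without both CA3 libraries (0.32, adjusted p = 0.067).

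In the nucleus and in energy metabolism, transcription factors were the most one-sided list. Of 27 neuronal transcription factors 18 were lower and 1 higher (median -0.39). Bcl11b (CTIP2), which marks hippocampal neurons, had 116 to 643 CPM (median 489) with HCl and 281 to 1149 CPM (median 833) with TE (-0.98 ± 0.11, adjusted p = 3.2e-10), with overlapping ranges. Tbr1 fell by 1.09 ± 0.13 on the log2 scale, and Nfix was the 1 higher factor (0.22 ± 0.09, and 0.00 and not called with the GC trend removed). Of 50 splicing factors 13 were higher and 14 lower, with Hnrnpa1 higher by 1.31 ± 0.20 and Celf1 lower by 0.77 ± 0.09. Of 20 immediate early genes 7 were lower and 1, Arc, higher (0.60 ± 0.15), and Egr1 fell by 1.08 ± 0.17 on the log2 scale. With the GC trend removed Arc was at 0.23 and not called (adjusted p = 0.23), and the list had 0 higher and 8 lower. Arc was also not called after thinning to the smallest total (0.41, adjusted p = 0.13). Of 78 nuclear genes of the respiratory chain 24 were lower and 15 higher (median -0.08, and 0.06 with scaling by totals). Ndufv1 (chr19:4007384-4012806), a complex I subunit, had 50.2 to 149 CPM (median 81.4) and 13.5 to 32.4 CPM (median 20.1), without overlap (1.75 ± 0.16, adjusted p = 8.9e-13), while Uqcrh of complex III fell by 1.19 ± 0.12 on the log2 scale. Of 16 glycolytic genes 5 were higher and 4 lower, and their median changed from 0.14 to -0.04 with the GC trend removed. Gapdh (chr6:125161715-125166467), often used as a reference gene, had 4.19 to 288 CPM (median 44.5) with HCl and 4.07 to 64.3 CPM (median 16.5) with TE, with overlap. Its log2 fold change was 1.49 ± 0.31 (adjusted p = 1.4e-04), and 2.75, 0.86 and -0.41 in CA1, CA3 and DG, and without both CA1 libraries Gapdh was at 0.61 and not called (adjusted p = 0.209).

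**Figure D5:**
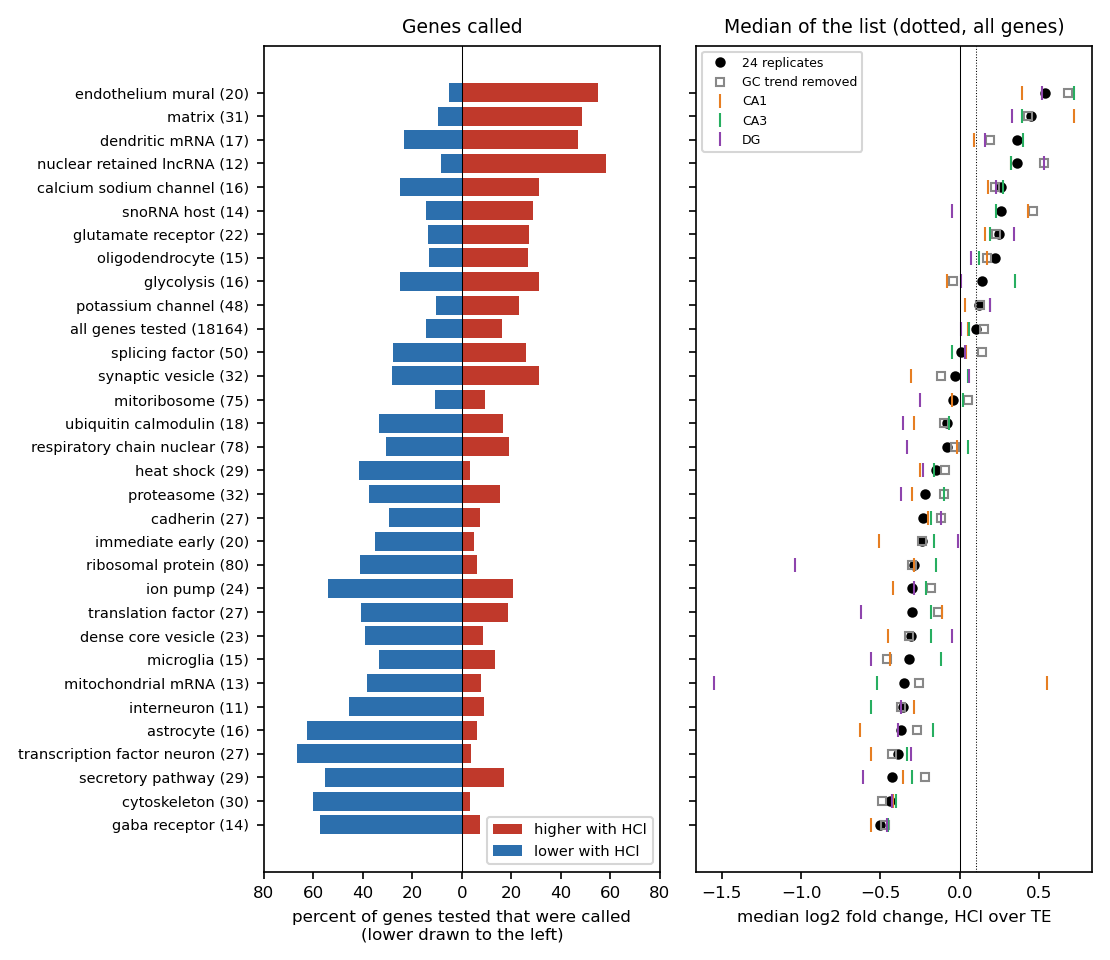
Lists with at least 10 genes tested (number in brackets), ordered by median log2 fold change of HCl over TE. Left, percent of tested members called higher (red) and lower (blue); right, medians over 24 replicates, by region and with the GC trend removed. GABA receptor, cytoskeleton and secretory pathway lists lie at the lower end, endothelium and mural cells and matrix at the upper end, and the ribosomal protein list is lowest in DG.

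Marker lists of other cell types in the sections also moved. In such bulk samples, fewer cells of a type and less RNA recovered per cell cannot be told apart. Of 20 markers of endothelium and mural cells 11 were higher and 1 lower (median 0.54), and their summed share was 0.102% ± 0.0141 with HCl and 0.0781% ± 0.0105 with TE (SD, n = 12 each), separate in CA3 and DG and overlapping in CA1. The CA1 overlap came from HCl CA1 replicate 4 alone, at 0.0786%. The other HCl CA1 replicates had 0.0894% to 0.12% and the TE CA1 replicates 0.0621% to 0.0848%. Vtn, vitronectin of pericytes, had 24.1 to 93.1 CPM (median 40.1) and 8.09 to 25.7 CPM (median 15.5) (1.37 ± 0.22, adjusted p = 1.3e-06). Acta2, smooth muscle actin, was higher by 1.08 ± 0.22, and Bsg, basigin of the blood-brain barrier, lower by 0.92 ± 0.15 on the log2 scale. Extracellular matrix genes were higher in 15 of 31 and lower in 3 (median 0.45), such as Col6a1 (1.67 ± 0.34) and Bcan, a proteoglycan of perineuronal nets (0.56 ± 0.10, and 0.13 and not called with the GC trend removed), against Hapln1, a link protein of the same nets (-1.03 ± 0.15). Astrocyte markers were lower in 10 of 16 and higher in 1 (median -0.37). Slc1a2, the glutamate transporter GLT-1, had 1396 to 1918 CPM (median 1604) and 1859 to 2792 CPM (median 2305) (-0.63 ± 0.09, adjusted p = 1.0e-07), Aqp4, the water channel of endfeet, fell by 0.87 ± 0.10 on the log2 scale, and Gfap was the 1 higher gene (0.62 ± 0.15). Without both CA3 libraries Gfap was at 0.27 and not called (adjusted p = 0.212). Oligodendrocyte markers were higher in 4 and lower in 2 of 15, microglia markers higher in 2 and lower in 5 of 15, and interneuron markers higher in 1 and lower in 5 of 11. The oligodendrocyte share was 0.387% to 2.13% with HCl and 0.310% to 1.25% with TE, and its highest value belonged to HCl CA1 replicate 4. Of 3 hemoglobin genes tested 2 were lower, Hba-a1 by 1.50 ± 0.21 on the log2 scale, with a summed erythrocyte share of 0.0259% ± 0.0161 with HCl and 0.0431% ± 0.0146 with TE. None of 8 choroid plexus genes was called over the 24 replicates, but within CA1 4 were higher (median 2.05), against 9.40% of all genes there, and 1 was lower in CA3 (median -0.65) and 1 in DG (median -1.36). In CA1 1 replicate stood out, since their summed share was 0.520% in HCl CA1 replicate 1, 0.0789% to 0.150% in the other HCl CA1 replicates and 0.0611% to 0.122% in the TE CA1 replicates. Enpp2, the most abundant of them, ranged from 272 to 1819 CPM with HCl and from 214 to 2100 CPM with TE, and Ttr, the transthyretin of choroid epithelium, ranged from 43.8 to 3125 CPM with HCl and from 19.5 to 2620 CPM with TE. The part of these cell types in the lists above was not tested.

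Each region by itself, with 4 replicates against 4, gave fewer calls. In CA1 3072 of 14801 genes were called (20.8%; 9.40% higher and 11.4% lower), in CA3 2079 of 15373 (13.5%; 6.34% and 7.18%), and in DG 2167 of 14102 (15.4%; 7.01% and 8.35%). Same-numbered replicates of both treatments deviated together in CA3 and DG, and with the replicate number as a block 3594 genes were called in CA3 and 3204 in DG. Of the 5552 genes called over the 24 replicates, 5036 were tested in all 3 regions and 4775 of these (94.8%) had the same sign in all 3, though the regions contributed to the call itself. The regions share no replicates, so calls of one can be read in another. Replicates of different regions may still come from the same mice, which the labels do not tell. Genes called in CA3 had the same sign in DG in 96.9%, and those called in DG had it in CA3 in 97.3%, beside 75.1% of all genes tested in both. For genes called in CA1 the shares were 90.4% in CA3 and 86.6% in DG, beside 70.5% and 68.7%. Genes called in CA3 were also called with that sign in DG in 57.1% and in CA1 in 54.8%, those called in DG in 54.3% in CA3 and 50.6% in CA1, and those called in CA1 in 37.6% in CA3 and 37.1% in DG. Of all genes tested in both regions of a pair, 20.9% to 21.6% were called in either direction in CA1, 14.4% to 14.8% in CA3 and 15.5% to 15.8% in DG. Across the 8432 to 8435 genes that averaged 10 UMIs or more, log2 fold changes of CA3 and DG had Pearson's r = 0.77, of CA1 and CA3 0.67 and of CA1 and DG 0.59, as a description across genes, which are not independent replicates.

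The change with HCl differed between regions, by the interaction of treatment and region, in 214 genes, 1.18% of those tested. CA1 was farthest from the other regions in 150 of them, CA3 in 13 and DG in 51, and in 160 the sign differed between regions. Without HCl CA1 replicate 4 there were 185, with 122, 13 and 50. With the replicate number as a block, although numbers paired replicates only in CA3 and DG, 759 genes were called, and 56 after thinning to the smallest total. Nuclear copies of mitochondrial sequence and mitochondrially encoded genes were 9 each of the 214, and 6 were satellite-like. mt-Co2, a cytochrome c oxidase subunit, had log2 fold changes of 2.81 ± 0.19, -0.89 ± 0.19 and -1.68 ± 0.32 in CA1, CA3 and DG (interaction adjusted p = 1.4e-17). Outside these groups, 3 genes chosen after their values were seen serve as examples. Tspyl4, of the nucleosome assembly protein family, had 2.18, -0.26 and -0.19 (interaction adjusted p = 2.3e-06), Tpt1, the abundant translationally controlled tumor protein, 1.06, -1.20 and -1.47 (interaction adjusted p = 5.0e-06), and Nrn1, neuritin, 1.15, -0.44 and -0.72 (interaction adjusted p = 2.2e-04). Each region had 1 library per treatment, and differences between regions and between libraries cannot be told apart.

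HCl replicates held more different genes when thinned to equal UMI totals. As deposited, 17392 ± 2190 genes were detected with HCl and 16186 ± 1341 with TE (SD, n = 12 each), a ratio of 1.07 within the spread of the replicates (two-sided permutation test within regions, p = 0.0969), and without HCl CA1 replicate 4 the ratio was 1.1 (p = 0.0118). After random thinning of each replicate to 127253 UMIs, 12543 ± 433 genes were detected with HCl and 11592 ± 282 with TE (p = 1.0e-05, the smallest the permutations can give). All 12 HCl replicates lay above all 12 TE replicates, though the lowest HCl replicate, with 11999 genes, was next to the highest TE replicate, with 11998. The means were 13067 against 11529 in CA1, 12343 against 11525 in CA3 and 12219 against 11722 in DG, each separate (exact permutation test, p = 0.0286 in each region, the smallest for 4 against 4). The 10 genes with most UMIs took 4.00% ± 1.29 of UMIs with HCl and 4.41% ± 0.938 with TE.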

How the data were processed

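Fresh-frozen hippocampal sections of CA1, CA3 and DG were treated with HCl or TE and measured by PIC. The authors deposited UMI counts per gene for 48 replicates in 1 table. The submitters' processing notes name UMI-tools 1.0.0, HISAT2 2.1.0, featureCounts 1.6.4 and DESeq2 1.20.0, and the genome build is GRCm38. The published featureCounts command sets no strand option, which counts reads without strand, and the annotation release is not given in the sources used here, so that overlapping and antisense genes cannot be told apart, and near-identical copies are uncertain. The deposited counts are not normalized. A table of barcodes was not used. All 24 columns of the comparison were used, and 0 columns of per-sample values were left out for want of a sample.

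Genes with 10 or more UMIs over the 24 replicates were fitted with treatment and region in edgeR 4.0.16 (TMM normalization, quasi-likelihood test, R 4.3.3) on the counts as deposited, and p-values were adjusted by Benjamini-Hochberg over all genes tested. Regions were also fitted alone, and the interaction in all 24 replicates. Classes, coordinates and transcript sequences came from GENCODE M21, which holds 32530 of the 32546 genes of the table. UMI totals and detected genes were compared by permutation within regions (100000 permutations, exact within a region), and shares were described without a test, with Python 3.11.15 and scipy 1.17.1. The GC trend was removed in 50 bins per replicate, and this correction and the fit without replicate 4 of every library were chosen after seeing the data. Each replicate was left out in turn, and HCl CA1 replicate 4 was singled out among them after seeing its values. DESeq2 1.42.0 and other scalings and filters were alternatives. On simulated data with known changes, 85% of genes changed by 1 and 100% of those changed by 2 on the log2 scale were recovered over 24 replicates, among 17714 genes, and 29% and 90% within CA1, among 14754 genes. False calls numbered 10 over 24 replicates and 16 within CA1. Changes were planted in 100 genes of each size, all averaging 10 UMIs or more per replicate. The simulated replicates were independent and had no effect of the library. These rates therefore do not cover rarer genes or differences between libraries.

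The comparison and the gene lists were chosen with earlier results of these data known. Genes were named by rule: the 15 largest changes in each direction among called genes that went one way in the 3 regions and averaged 10 UMIs or more per replicate, the most abundant and most changed members of each list and class, a few region markers and Gapdh, and genes near the limit of 4096 different UMIs. Satellite-like and mitochondrial copies outside the rule, such as Gm10715, Gm10722 and Gm10925, were chosen after their values were seen. Same-numbered replicates of both treatments were checked for pairing: the correlation of their deviations was over 0.1 in every pair of CA3 and DG but not of CA1, so that numbers were taken to pair replicates only in CA3 and DG. Fits with the number as a block were run as alternatives in all comparisons. Totals limit rare genes, and the p-values assume replicates that share a library to be independent. Some genes that the naming rule selects are not reported here.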

Additional observations from a re-analysis of the deposited data

Results flagged for a closer look

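Some replicates stood apart from the other 3 of their group by Dixon's test, in 22 of 240 groups of 4 examined. Chance flags about 1 in 20 groups. In HCl CA1 replicate 4 the mitochondrially encoded share was 8.26% and the satellite-like share 4.00%, and the satellite-like genes were at 2986 CPM for Gm10717, 519 CPM for Gm10719, 322 CPM for Gm10720, 1234 CPM for Gm26870, 283 CPM for Gm10718, 9925 CPM for Gm21738, 8636 CPM for Gm10801 and 14271 CPM for Gm10800. These 8 genes share sequence. The other values that stood apart were Gm10717 at 13.6 CPM in TE DG replicate 2, Gm21738 at 326 CPM in TE CA3 replicate 2, Dlgap3 at 54.6 CPM in HCl CA3 replicate 2, Adgrb2 at 19.6 CPM in TE CA1 replicate 2, Fcho1 at 8.39 CPM in TE DG replicate 3 and Chchd2 at 722 CPM in TE DG replicate 1. Rnf227 stood apart at 83.8 CPM in HCl DG replicate 3 and 433 CPM in TE DG replicate 2, Cebpz at 29.7 CPM in TE CA1 replicate 4, Dnajc2 at 33.9 CPM in TE CA3 replicate 1, Hsp90aa1 at 154 CPM in HCl DG replicate 3 and Vti1b at 18.5 CPM in HCl CA3 replicate 3.

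The change with HCl differed between CA1, CA3 and DG in named genes, by edgeR's test of the interaction with Benjamini-Hochberg adjusted p. Among mitochondrial genes and their copies p was 7.6e-25 for Gm10925, 3.9e-22 for Gm28437, 1.4e-17 for mt-Co2, 2.1e-10 for mt-Co3, 7.7e-08 for mt-Atp6, 2.4e-05 for mt-Co1, 2.9e-04 for mt-Nd5, 0.00182 for mt-Nd3 and 0.0231 for mt-Rnr1. Among satellite-like genes p was 2.6e-09 for Gm10722, 6.6e-06 for Gm10801, 2.2e-04 for Gm26870, 6.2e-04 for Gm21738, 6.4e-04 for Gm10800 and 0.00931 for Gm10717. Among the others p was 2.3e-06 for Tspyl4, 5.0e-06 for Tpt1, 2.2e-04 for Nrn1, 0.0112 for Pcsk1n, 0.0174 for Ttr, 0.0200 for Enpp2, 0.0212 for Rgs14, 0.0350 for Rpl10, 0.0404 for Map1a and 0.0438 for Uqcrh. For Ttr, Enpp2 and Rgs14, HCl CA1 replicate 1 stood apart in the summed share of their lists. It held 0.520% choroid plexus and 0.0722% CA2 marker UMIs, the other HCl CA1 replicates 0.0789% to 0.150% and 0.0289% to 0.033%. Region and library cannot be told apart in these tests.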

How the results depend on the processing

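Over the 24 replicates the count of 5552 called genes was 5161 with DESeq2, 5975 with totals, 4067 with the replicates of each library summed, 4679 of 9602 genes with a stricter filter and 2322 of 13333 after thinning to the smallest total. Every gene called in common kept its sign under each of these. Thinning also gave 56 calls in the interaction, 889 in CA1, 488 in CA3 and 842 in DG, from fewer UMIs, and DESeq2 gave 1940 in CA1, of which the cause was not tested. With the replicate number as a block there were 6183 calls over 24 replicates, 759 in the interaction and 3594 in CA3; numbers paired replicates only in CA3 and DG. Leaving out 1 replicate gave 5174 to 5485 calls over all, 2363 to 2979 in CA1, 1566 to 1802 in CA3, 1617 to 2068 in DG and 146 to 215 in the interaction. The ratio of UMI totals was 0.943 to 1.06, on either side of 1, and that of detected genes 1.06 to 1.1, and 1.08 at equal UMI totals. A correction for repeated UMIs, which assumes at most 4096 per gene although mt-Rnr2 reached 4356 and was set just below the limit, so that its values are uncertain, moved the difference of HCl minus TE in percent of UMIs from -0.489 to -3.44 for mitochondrially encoded genes, from 0.248 to 0.355 for nuclear-retained lncRNAs and from 4.10 to 5.03 for coding genes of 50% GC or more. Removing the GC trend, chosen after seeing the data, reduced the GC difference to 0.06 by construction. Of 89 named genes called, 68 kept their call in every alternative counted. That count included the fit with the GC trend removed. In that fit Eef1a2, Nfix, Bcan, Malat1, Arc, mt-Nd1, mt-Nd3 and Pcp4 were not called. Without both CA1 libraries mt-Nd3 was at -0.68, Gm10925 at -1.55, mt-Atp6 at -0.67, mt-Co2 at -1.17 and Tspyl4 at -0.24, and Nfix was at 0.00 with the GC trend removed, against their sign in all replicates. Depth limits calls of rare genes.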
